A study of Mus musculus with 6 samples.

Results

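The CDK inhibitors and the p53 pathway genes named with them were followed here in mouse embryonic hearts that lack Hdac3 in the Isl1 lineage. The 10 genes were Cdkn1a, Cdkn1b and Cdkn1c of the Cip/Kip family, Cdkn2a, Cdkn2b, Cdkn2c and Cdkn2d of the Ink4 family, and Ccng1, Mdm2 and Trp53. They were chosen by name, and each was read from the array rows whose platform annotation gives that gene symbol alone. By this rule 9 of the 10 genes had a row, 1 row each, among 22180 genes on the array, and Trp53 was not analysed here. The mutant hearts were Hdac3-flox/flox; Isl1-Cre, called Hdac3-Isl1KO, and the controls were Hdac3-flox/flox without Cre, both of strain C57BL/6 at embryonic day 9.5. Each group had 3 arrays, and each array held RNA of a pool of hearts. Both groups carry the floxed Hdac3 alleles, so the Isl1-Cre allele itself and the loss of Hdac3 cannot be told apart. Isl1-Cre acts in cells that express Isl1, among them the second heart field progenitors of the outflow tract and right ventricle, so a pool of whole hearts also holds cells in which Hdac3 was not deleted.

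Cyclin-dependent kinases (CDKs) drive a cell through its cycle, and CDK inhibitors hold them back. Cip/Kip proteins bind cyclin-CDK complexes of several phases, while Ink4 proteins bind Cdk4 and Cdk6 and keep D cyclins off them. The transcription factor p53, encoded by Trp53, is kept low by the ubiquitin ligase Mdm2 and, when stabilised after DNA damage, switches on Cdkn1a, Ccng1 and Mdm2 itself. In the early heart muscle cells divide while they contract, and Cdkn1b and Cdkn1c are known as brakes on that division later in development.

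The bases before the transcription start are shown for the p53 targets among the measured genes, Cdkn1a, Ccng1 and Mdm2. None of them passed the limma test at an adjusted p of 0.05. The groups were apart downward in Cdkn1a and Ccng1 and overlapped in Mdm2. A link between these sequences and the expression values was not tested. RefSeq's promoter table of build GRCm38.p6 held windows for 8 of the 9 measured genes, 11 windows in all, and Cdkn1c was not among them. Each line gives the 250 bases before a start, read 5′ to 3′ on the strand of the gene. The windows are chr17:29090729-29090978 and chr17:29093519-29093768 on the plus strand for the upstream and downstream starts of Cdkn1a, and chr11:40755287-40755536 and chr10:117710759-117711008 on the minus strand for Ccng1 and Mdm2. Capitals mark stretches that match the consensus p53 half-site, except in the downstream Cdkn1a window, where no half-site matched and capitals mark GC boxes (GGGCGG).
Cdkn1a, upstream start: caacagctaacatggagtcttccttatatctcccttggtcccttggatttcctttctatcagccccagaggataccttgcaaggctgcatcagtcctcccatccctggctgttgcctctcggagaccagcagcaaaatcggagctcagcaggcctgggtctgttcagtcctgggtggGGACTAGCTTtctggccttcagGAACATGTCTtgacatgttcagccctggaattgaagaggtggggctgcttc
Cdkn1a, downstream start: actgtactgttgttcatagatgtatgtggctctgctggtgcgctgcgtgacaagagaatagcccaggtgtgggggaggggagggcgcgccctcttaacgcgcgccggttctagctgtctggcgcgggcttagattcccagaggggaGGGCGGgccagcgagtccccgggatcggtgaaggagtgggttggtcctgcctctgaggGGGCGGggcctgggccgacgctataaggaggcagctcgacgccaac
Ccng1: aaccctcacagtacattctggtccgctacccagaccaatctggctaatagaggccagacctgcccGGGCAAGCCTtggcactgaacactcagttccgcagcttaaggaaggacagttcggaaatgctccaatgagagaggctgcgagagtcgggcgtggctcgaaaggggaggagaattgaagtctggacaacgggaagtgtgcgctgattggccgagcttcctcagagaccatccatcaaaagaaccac
Mdm2: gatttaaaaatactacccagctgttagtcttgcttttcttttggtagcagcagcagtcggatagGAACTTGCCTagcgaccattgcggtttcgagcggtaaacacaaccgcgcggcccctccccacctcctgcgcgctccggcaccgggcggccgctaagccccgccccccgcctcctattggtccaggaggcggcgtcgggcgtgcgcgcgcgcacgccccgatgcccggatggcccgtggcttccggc
Only exact matches to the half-site consensus were searched. The upstream Cdkn1a window held the half-sites GGACTAGCTT and GAACATGTCT with 12 bases between them, from 73 to 42 bases before the start. The bases directly after GAACATGTCT, tgacatgttc, miss the consensus only at their first letter. They were therefore neither marked nor paired with it, and the spaced pair need not be the stretch that p53 binds. A pair of exact half-sites at most 13 bases apart was present in 0.0639% of 32851 RefSeq windows of this length, and among the measured members in this window alone. Ccng1 held the single half-site GGGCAAGCCT and Mdm2 the half-site GAACTTGCCT. Bases outside these windows, those within the genes among them, were not searched, so p53 sites there would be missed. A single half-site occurred in 7.13% of all windows and in those of 4 members, Cdkn1a, Ccng1, Mdm2 and Cdkn2d. GC boxes, GGGCGG or CCGCCC on either strand, occurred in 6 of the 11 member windows and in 32.7% of all windows. The E2F motif was TTT and CGC parted by any pair of bases, searched on both strands. It occurred in 3 of the 11 member windows, those of Cdkn2a and Mdm2, and in 4.28% of all windows. A match describes the letters only.

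The values are RMA log2 expression, in which a difference of 1 is a doubling. Array medians ran from 5.64 to 5.71. Pairs of arrays correlated at 0.980 to 0.989, and Hdac3-flox/flox replicate 2 was lowest on average, at 0.982. The deleted gene was checked first. Hdac3 read 9.11, 9.20 and 9.31 in the Hdac3-Isl1KO arrays, against 9.67, 9.73 and 9.64 in the Hdac3-flox/flox arrays. All 3 Hdac3-Isl1KO pools lay below all 3 Hdac3-flox/flox pools, with a difference of -0.47 (95% interval -0.66 to -0.29), which missed the threshold of 0.05 (limma adjusted p = 0.0636, range over the alternatives 0.00108 to 0.244). The position of its probes along the gene was not analysed here, so Hdac3 checks the labels only in part. The 10 cardiomyocyte markers were all measured and all lay above the 25th percentile of the rows, 4.45, and 0 of them passed the limma test. At an unadjusted p under 0.05, 1 was higher and 0 lower, where 6.57% and 7.96% of all genes were. Even so, 7 of 10 were below 0, and 6 had every Hdac3-Isl1KO array below every control, as in 12.4% of all genes.

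None of the 9 measured genes passed the limma test over all genes at an adjusted p of 0.05, where 0.428% of the 22180 genes did. At an unadjusted p under 0.05 there were 4, Cdkn1a, Cdkn1b, Cdkn2c and Ccng1, all with lower values in Hdac3-Isl1KO, where 7.96% of all genes were lower by that rule. In the same 4 genes every Hdac3-Isl1KO array read below every Hdac3-flox/flox array, as in 12.4% of all genes. No member lay apart in the other direction, as 9.41% of all genes did. Of the 9 differences 7 were below 0, as were 50% of all genes. Their median was -0.10 and that of all genes was 9.4e-05. The genes were chosen with earlier results of these arrays known, so the excess over the share of all genes is a description and not a test. With limma's prior variance trended on expression level, an alternative that called 3.9% of all genes, 1 member passed, Ccng1. In bulk tissue, fewer cells of a type and less RNA per cell cannot be told apart.

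**Figure D1:**
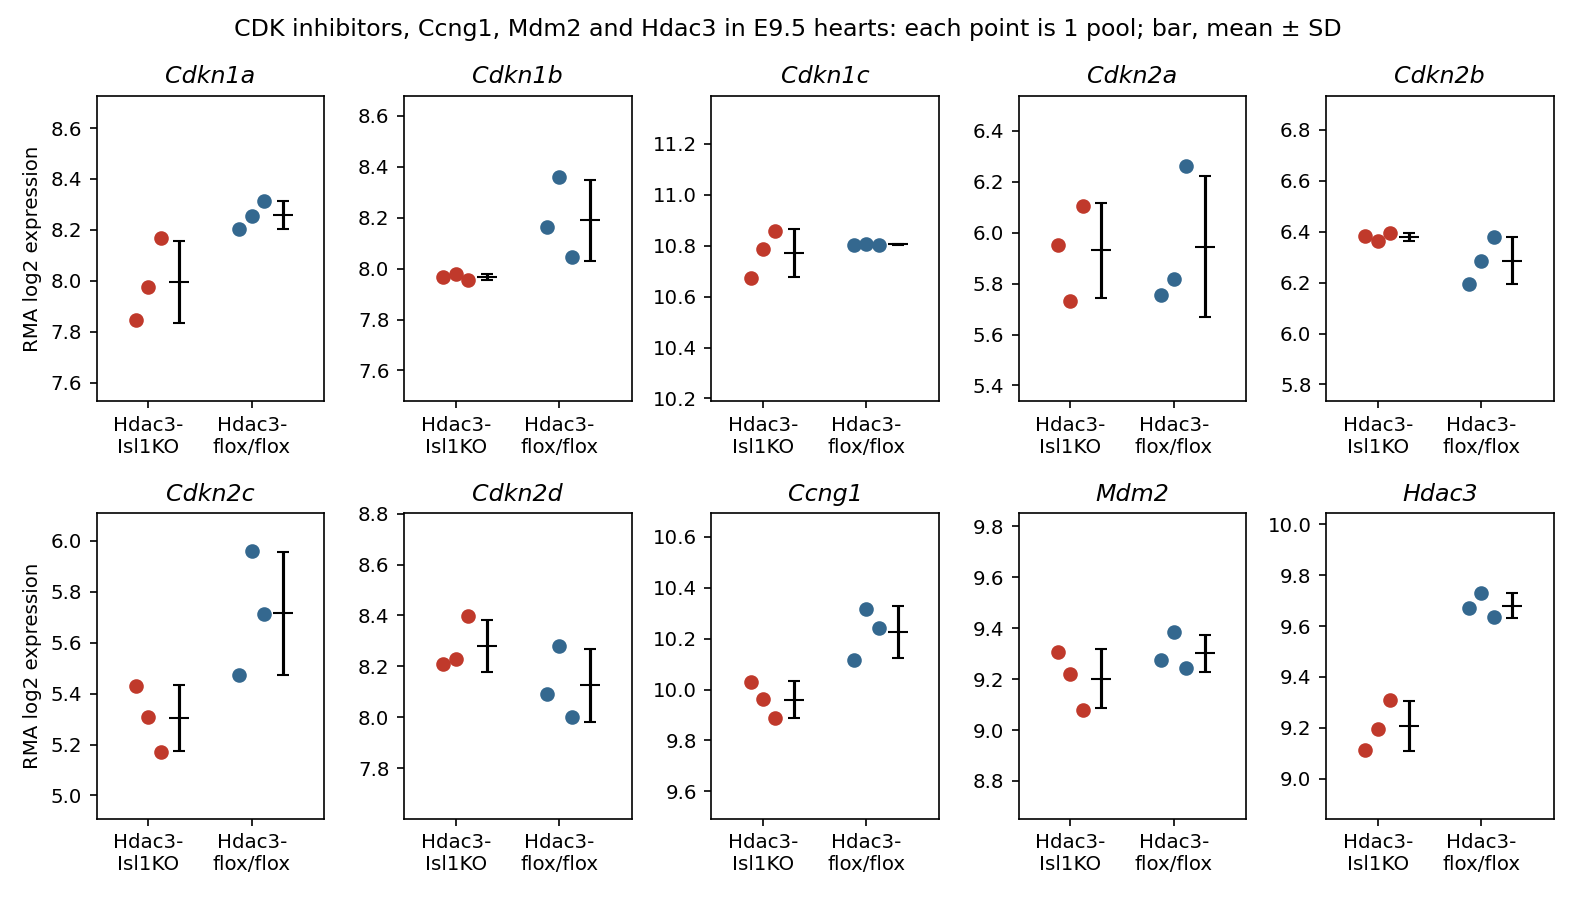
RMA log2 expression of the 9 measured genes and of Hdac3 in each pool, Hdac3-Isl1KO (red) left of Hdac3-flox/flox (blue), with the mean and SD of 3 pools beside the points; every panel spans the same range of 1.2 log2 units around its own centre. The red and blue points are apart in Cdkn1a, Cdkn1b, Cdkn2c, Ccng1 and Hdac3 and overlap in the other panels.

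Among the Cip/Kip genes, Cdkn1a and Cdkn1b gave lower values in Hdac3-Isl1KO hearts and Cdkn1c was near 0 in difference. Cdkn1a encodes p21, the inhibitor through which p53 halts the cycle. It read 7.85, 7.98 and 8.17 in the Hdac3-Isl1KO arrays, against 8.20, 8.26 and 8.31 in the Hdac3-flox/flox arrays. The groups were apart, but the highest Hdac3-Isl1KO pool lay close under the lowest control pool. The log2 difference was -0.26 (95% interval -0.49 to -0.034, limma adjusted p = 0.289), which is 1.20-fold lower. With any 1 array left out it stayed between -0.35 and -0.19.

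Cdkn1b encodes p27, which restrains Cdk2 and accumulates in cells that leave the cycle. It read 7.97, 7.98 and 7.96 in Hdac3-Isl1KO, against 8.16, 8.36 and 8.04 in Hdac3-flox/flox. The Hdac3-Isl1KO pools were almost level, and the controls were spread, with replicate 2 highest. The difference was -0.22 (95% interval -0.44 to -0.0042, limma adjusted p = 0.336), and it was -0.14 without Hdac3-flox/flox replicate 2.

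Cdkn1c encodes p57 and is an imprinted gene, expressed from the maternal copy. It read 10.67, 10.79 and 10.86 in Hdac3-Isl1KO, against 10.80, 10.81 and 10.80 in Hdac3-flox/flox. The control pools were nearly equal and the Hdac3-Isl1KO pools lay on both sides of them. The difference was -0.033 (95% interval -0.21 to 0.14, limma adjusted p = 0.877), and its sign turned to 0.017 without Hdac3-Isl1KO replicate 1.

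Among the Ink4 genes, Cdkn2c had the lowest difference of all members, while Cdkn2b and Cdkn2d were a little above 0 and Cdkn2a near it. Cdkn2c encodes p18, an inhibitor of Cdk4 and Cdk6. It read 5.43, 5.31 and 5.17 in Hdac3-Isl1KO, against 5.47, 5.96 and 5.71 in Hdac3-flox/flox. The groups were apart by a small margin, and the controls spread more widely. The log2 difference was -0.41 (95% interval -0.73 to -0.093, limma adjusted p = 0.249), which is 1.33-fold lower, and it was -0.29 without Hdac3-flox/flox replicate 2. Its mean over the arrays, 5.51, lay under the median row of 5.66, where RMA compresses differences.

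Cdkn2d encodes p19Ink4d, of the same family. It read 8.21, 8.23 and 8.40 in Hdac3-Isl1KO, against 8.091, 8.281 and 8.003 in Hdac3-flox/flox. Control replicate 2 lay among the Hdac3-Isl1KO values, so the groups overlapped. The difference was 0.15 (95% interval -0.077 to 0.38, limma adjusted p = 0.526). It was 0.095 without Hdac3-Isl1KO replicate 3, 0.093 without Hdac3-flox/flox replicate 3 and 0.23 without Hdac3-flox/flox replicate 2.

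Cdkn2a and Cdkn2b are neighbouring genes on chromosome 4. Cdkn2a encodes p16Ink4a and, in another reading frame, p19Arf, which blocks Mdm2 and so links the Ink4 locus to p53, and 1 array row cannot tell these transcripts apart. Cdkn2a read 5.95, 5.73 and 6.11 in Hdac3-Isl1KO, against 5.76, 5.82 and 6.26 in Hdac3-flox/flox. The groups lay across each other, with a difference of -0.015 (95% interval -0.39 to 0.36, limma adjusted p = 0.978), the widest interval of the 9 genes, and its sign turned when some arrays were left out (-0.11 to 0.14). Cdkn2b encodes p15, known as a target of TGF-beta. It read 6.38, 6.36 and 6.39 in Hdac3-Isl1KO, against 6.19, 6.28 and 6.38 in Hdac3-flox/flox. The highest control value lay within the narrow Hdac3-Isl1KO range, and the difference was 0.094 (95% interval -0.078 to 0.27, limma adjusted p = 0.605). It was 0.048 without Hdac3-flox/flox replicate 1 and 0.14 without Hdac3-flox/flox replicate 3.

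Of the p53 targets Ccng1 and Mdm2, Ccng1 was apart between the groups and Mdm2 was not. Ccng1 encodes cyclin G1, which recruits a phosphatase that acts on Mdm2. It read 10.03, 9.96 and 9.89 in Hdac3-Isl1KO, against 10.12, 10.32 and 10.24 in Hdac3-flox/flox. All Hdac3-Isl1KO pools were below all controls. The log2 difference was -0.27 (95% interval -0.46 to -0.074), which is 1.20-fold lower, and had the smallest limma adjusted p of the members, 0.226. With the trended prior its limma adjusted p was 0.0302, and it ranged from 0.0295 to 0.465 over all alternatives. With any 1 array left out the difference stayed between -0.32 and -0.22.

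Mdm2 read 9.31, 9.22 and 9.08 in Hdac3-Isl1KO, against 9.27, 9.38 and 9.25 in Hdac3-flox/flox. The groups overlapped. The difference was -0.10 (95% interval -0.30 to 0.10, limma adjusted p = 0.644). It was -0.15 without Hdac3-Isl1KO replicate 1, -0.038 without Hdac3-Isl1KO replicate 3 and -0.058 without Hdac3-flox/flox replicate 2. Whether Ccng1 or Cdkn1a differs from Mdm2 in response was not tested.

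An exact permutation test of 3 against 3 arrays cannot go below 0.1 (two-sided). Cdkn1a, Cdkn1b, Cdkn2c and Ccng1 each had this smallest value, and the exact permutation p of the other 5 members lay between 0.2 (Cdkn2b) and 0.9 (Cdkn2a).

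**Figure D2:**
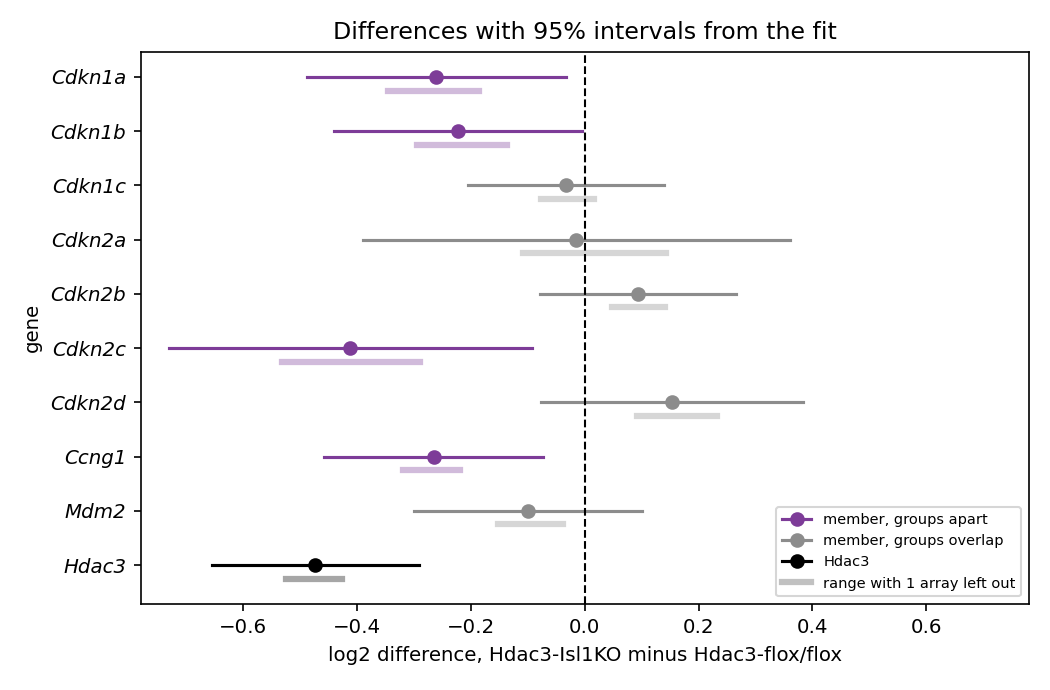
Log2 differences, Hdac3-Isl1KO minus Hdac3-flox/flox, of the 9 measured genes and Hdac3 (points) with 95% intervals from the fit (thin lines) and the range when any 1 array is left out (thick pale lines). The intervals of Cdkn1a, Cdkn1b, Cdkn2c and Ccng1 lie below 0, with upper ends closer to 0 than that of Hdac3, and the pale lines of Cdkn1c and Cdkn2a cross 0.

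The machinery that CDK inhibitors act on was read from lists of genes. Over 7 such lists, 115 of 124 genes were measured and 0 passed with limma over all genes, while 14 were lower and 7 higher at an unadjusted p under 0.05, where 7.96% and 6.57% of all genes were. The trended prior called 7 of the 115, Cdk2, Cdk6, Ccna2, Rbl1, Cks2, Hipk2 and Bcl2, where it called 3.9% of all genes. Cyclins, CDKs and their phosphatases had 6 of 17 measured genes above 0 and 11 below, with a median of -0.073, and 3 were lower at an unadjusted p under 0.05. Cdk6, a target of the Ink4 proteins, read 8.78, 8.61 and 8.71 in Hdac3-Isl1KO, against 8.93, 9.05 and 8.90 in Hdac3-flox/flox, a difference of -0.26 (limma adjusted p = 0.218). Cdk2, the kinase restrained by p21 and p27, differed by -0.19 and its partner cyclin A2, Ccna2, by -0.21 (limma adjusted p = 0.253 and 0.247), both with the groups apart.

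Pocket proteins and E2F factors stand next in this chain, since active CDKs phosphorylate the pocket proteins and so release E2F. Of 15 measured genes 5 were above 0 and 10 below (median -0.038). At an unadjusted p under 0.05, 3 were lower and 1 higher, where 7.96% and 6.57% of all genes were. The pocket protein gene Rbl1 read 8.37, 8.17 and 8.21 in Hdac3-Isl1KO, against 8.55, 8.52 and 8.49 in Hdac3-flox/flox, a difference of -0.27 (limma adjusted p = 0.202). Rb1, the retinoblastoma gene, differed by -0.39 (limma adjusted p = 0.253), and by -0.018 in a dimmer row below the 25th percentile. The repressor gene E2f7 was on the other side, at 8.26, 8.27 and 8.17 in Hdac3-Isl1KO, against 8.06, 8.03 and 8.01 in Hdac3-flox/flox, a difference of 0.20 (limma adjusted p = 0.253).

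Genes for the turnover of CDK inhibitors had 7 of 10 measured genes above 0 and 3 below (median 0.024). At an unadjusted p under 0.05, where 6.57% of all genes were higher, 1 of them was higher. This was Cks2, a small CDK-binding protein related to Cks1, with which the Skp2 ligase recognises p27. Cks2 read 9.69, 9.67 and 9.55 in Hdac3-Isl1KO, against 9.14, 9.18 and 9.07 in Hdac3-flox/flox, with the groups far apart relative to their spread. The difference was 0.50 (95% interval 0.33 to 0.68, limma adjusted p = 0.0541), or 1.42-fold higher, just outside the threshold, and several alternatives took it inside. The array has 4 rows for Cks2, of which 3 carry the same values and the fourth differed by 0.44, and values of a gene with such repeated rows are uncertain. The cullin genes, for scaffolds of the ubiquitin ligases that degrade CDK inhibitors, showed smaller differences, 0.17 for Cul1 and -0.062 for Cul4a (limma adjusted p = 0.400 and 0.701).

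The regulators of p53 had 12 of 26 measured genes above 0 and 14 below (median -0.011). Hipk2, a kinase that activates p53, read 9.23, 9.34 and 9.27 in Hdac3-Isl1KO, against 8.92, 9.04 and 9.09 in Hdac3-flox/flox, a difference of 0.26 (limma adjusted p = 0.205). The p53 ligase gene Rchy1 and the Mdm2 partner gene Mdm4 differed by -0.23 and -0.23 (limma adjusted p = 0.314 and 0.341). Hipk2 was apart between the groups upward and Rchy1 downward, while Mdm4 overlapped.

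Further p53 targets did not all share a direction. The targets of cycle arrest and repair had 9 of 20 measured genes above 0 and 11 below (median -0.043). At an unadjusted p under 0.05, 4 were lower and 0 higher, where 7.96% and 6.57% of all genes were. Groups were apart downward in 5 and upward in 2, where 12.4% and 9.41% of all genes were. Btg2, an antiproliferative p53 target, read 6.65, 6.71 and 6.76 in Hdac3-Isl1KO, against 6.90, 7.13 and 6.91 in Hdac3-flox/flox, a difference of -0.27 (limma adjusted p = 0.237). Polk, a DNA polymerase that copies past damage, differed by -0.24 and Trp53inp1, a stress protein induced by p53, by -0.39 (limma adjusted p = 0.205 and 0.242). The list for cell death holds p53 targets and also the survival genes Bcl2, Bcl2l1 and Mcl1, which are not read here as targets that p53 switches on. It had 9 of 16 above 0 and 7 below (median 0.021). At an unadjusted p under 0.05, 3 were higher, Bcl2 among them, and 1 was lower, where 6.57% and 7.96% of all genes were. Bcl2, which protects cells from death, read 9.32, 9.28 and 9.26 in Hdac3-Isl1KO, against 9.00, 8.96 and 9.07 in Hdac3-flox/flox, a difference of 0.28 (limma adjusted p = 0.156), and -0.11 in a dimmer row. Siva1, which promotes death, differed by 0.23 and the death receptor gene Tnfrsf10b by -0.25 (limma adjusted p = 0.275 and 0.281).

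**Figure D3:**
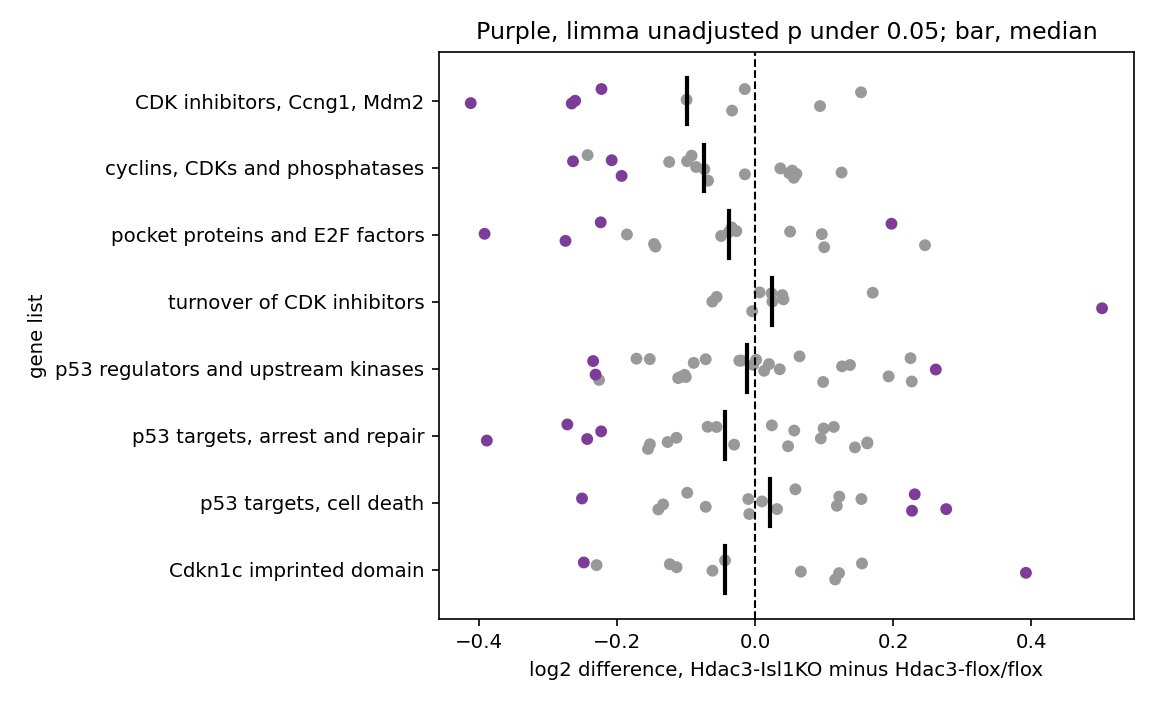
Log2 differences, Hdac3-Isl1KO minus Hdac3-flox/flox, of each measured gene of the 9 members and of 7 lists around them (points, spread vertically so that they can be seen), with each list's median as a black bar and genes at a limma unadjusted p under 0.05 in purple. Medians lie between -0.10 and 0.024, and the point farthest to the right is Cks2 at 0.50.

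Cdkn1c lies in an imprinted domain together with Kcnq1 and the noncoding RNA gene Kcnq1ot1, which silences the domain on the paternal copy. All 11 listed neighbours were measured, 5 above 0 and 6 below, with a median of -0.044. The potassium channel gene Kcnq1 read 6.10, 6.11 and 6.30 in Hdac3-Isl1KO, against 6.40, 6.49 and 6.36 in Hdac3-flox/flox, with the groups apart and a difference of -0.25 (limma adjusted p = 0.254). Phlda2, which restrains placental growth, read 5.78, 5.77 and 5.93 in Hdac3-Isl1KO, against 5.35, 5.77 and 5.18 in Hdac3-flox/flox, with overlap and a difference of 0.39 (limma adjusted p = 0.305). Kcnq1ot1 differed by -0.12, Osbpl5 by -0.23, Cd81 by -0.11, Tssc4 by -0.062 and Ascl2 by -0.044. Trpm5 differed by 0.12, Slc22a18 by 0.12, Nap1l4 by 0.066 and Th by 0.15. Limma adjusted p-values of these last 9 genes lay between 0.454 and 0.877.

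Markers of the heart and of other tissues were read in the same arrays. Second heart field markers had 5 of 9 measured genes above 0 and 4 below (median 0.046). Isl1 itself differed by -0.033 (95% interval -0.27 to 0.20, limma adjusted p = 0.913). Endothelial and endocardial markers had 5 of 10 above 0, primitive erythroid markers 3 of 8 and macrophage markers 8 of 10 (medians -0.018, -0.039 and 0.12). In each of these lists 0 genes passed the limma test, where 0.428% of all genes did. The erythroid markers were split, with groups apart downward in 3 and upward in 2, where 12.4% and 9.41% of all genes were. At a limma unadjusted p under 0.05, 3 macrophage markers were higher and 0 lower, where 6.57% and 7.96% of all genes were. Of 9 measured trophoblast and placental markers 9 were above 0 and 5 rose over all genes with limma, where 0.23% of all genes did. These 5 were Prl4a1, Prl3d3, Prl7a1, Psg29 and Cyp11a1. Tfap2c, Tpbpa, Plac1 and Elf5 overlapped between the groups (limma adjusted p = 0.436, 0.883, 0.537 and 0.873), so the rise was not shared by the whole list. The summed level of the list, after undoing the log2, was 831 to 921 in Hdac3-Isl1KO arrays, against 361 to 415 in Hdac3-flox/flox arrays. Liver and yolk sac endoderm markers summed to 581 to 597 in Hdac3-Isl1KO, against 398 to 455 in Hdac3-flox/flox, with 9 of 10 above 0 and 1 rising over all genes. Groups were apart upward in 7 of these 10, as in 9.41% of all genes. At a limma unadjusted p under 0.05, 5 of them were higher, where 6.57% of all genes were. Epithelial markers summed to 1074 to 1161 in Hdac3-Isl1KO, against 852 to 897 in Hdac3-flox/flox, with 10 of 10 above 0 and 0 passing the test. Of these 10, 8 had the groups apart upward and 7 were higher at a limma unadjusted p under 0.05. The shares of all genes were 9.41% and 6.57%. Epicardial and proepicardial markers summed to 2078 to 2162 in Hdac3-Isl1KO, against 2720 to 2900 in Hdac3-flox/flox, with 8 of 10 below 0 and 2 above. Over all genes 2 of them fell, Upk3b (-0.94) and Upk1b (-0.72), where 0.198% of all genes did. The list was not uniform. Krt19 lay apart upward (0.19, limma adjusted p = 0.266), and Wt1 was near 0 (0.0014, limma adjusted p = 0.997). Groups were apart downward in 5 of 10, as in 12.4% of all genes. Cardiomyocyte markers summed to 41218 to 41768 in Hdac3-Isl1KO, against 42058 to 42792 in Hdac3-flox/flox, with 7 of 10 below 0, a median of -0.067, and 6 of 10 with every Hdac3-Isl1KO array below every control, as in 12.4% of all genes. RMA lists none of these at 0, and 2 trophoblast, 1 endoderm and 1 epithelial marker had means below the 25th percentile of the rows. The part of these tissues and cell types in the values of the CDK inhibitors and p53 pathway genes was not tested.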

How the data were processed

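Whole-transcript Affymetrix arrays were read for 3 pools of Hdac3-Isl1KO and 3 of Hdac3-flox/flox hearts. Per the labels' protocols, labelled cDNA was made from 100 ng of total RNA with the WT PLUS kit. The authors deposited log2 expression values, and the submitters' processing notes name oligo and RMA, without versions here. Neither detection calls nor scan batches were used. The labels do not say that the pools came from separate litters, so p-values reflect spread among pools that may be technical in part.

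Of 41345 rows, 23521 carried exactly 1 symbol, and the row with the highest mean was kept for each of 22180 genes. Hdac3-Isl1KO minus Hdac3-flox/flox was fitted in R 4.3.3 by limma 3.58.1 (lmFit, eBayes, two-sided, Benjamini-Hochberg over all genes, threshold 0.05), with 95% intervals from the fit. On simulated data with these 22180 genes, 28.5% of 200 genes given a log2 change of 0.5 were called, and 80.5% of 200 given a change of 1, with 3 and 9 false calls. The simulated noise was independent between genes, and the spreads were shuffled among the genes, so spread no longer went with expression level. No change between 0 and 0.5 was simulated, so these rates do not describe differences as small as those of the members. Named genes compared with the alternatives were the members, Hdac3, the Cdkn1c neighbours and, of each other pathway list, the 3 with the smallest p-values. Some tissue markers are named besides and were not part of that comparison. The members and lists were chosen with earlier results of these data known. The alternatives tried were other normalizations, the replicate number as a block, leaving out each array, filters on dim rows, mean of rows, trended priors, array weights and a threshold of 0.1. Same-numbered pools did not deviate together (correlations -0.013, -0.086 and 0.040), so the numbers were not taken as pairs. Plots were drawn with matplotlib 3.10.9.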

Additional observations from a re-analysis of the deposited data

How the results depend on the processing

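Over all genes the count past the threshold was 95, and it was 144 under quantile normalization, 243 with array weights, 235 and 617 without genes below the 25th percentile and median rows, 866 with either trended prior, 317 at a threshold of 0.1, 0 with the replicate block and 2 to 25 with 1 array left out. Of the 9 members 1 passed, Ccng1, with the trended prior and its robust form (-0.27 in both), and 0 passed in every other alternative. Cdkn2c was not tested without genes below the median row. Of the pathway genes 7 passed with either trended prior, 2 without genes below the median row and 1 each under quantile normalization, array weights, the 25th percentile filter and the threshold of 0.1. Hdac3 passed at -0.47 with either trended prior, either filter and the threshold of 0.1, and at -0.46 with array weights. The sign of Cdkn2a turned with array weights (0.039) and over arrays left out (-0.11 to 0.14), that of Cdkn1c only over arrays left out (-0.076 to 0.017), and that of Ascl2 likewise (-0.13 to 0.020). The causes of these turns were not tested. With the replicate block the limma adjusted p of Ccng1 was 0.378 and that of Cdkn1a 0.358, with the differences as before, and 0 of the members passed. In 587 of 620 comparisons of a named gene with an alternative, direction and side of the threshold were kept. None of these genes passed in the main fit, so keeping the side means staying short of the threshold, and the count says little about robustness. No member has a second row, so that alternative was not run. The number of arrays limits the precision, and dim genes cannot be separated from background.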
